A study of Mus musculus with 22 samples.

Results

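The infrarenal and the suprarenal abdominal aorta were compared in mice that had received calcium chloride and angiotensin II together, a combination written CaAngII below. The infrarenal segment had been in direct contact with the calcium chloride, and the suprarenal segment had not, while the infused angiotensin II circulated past both. The comparison used 4 of the series' 22 arrays. One array was hybridised for each of a wild-type (WT) suprarenal pool, a tenascin C knockout (TNC-KO, here KO) suprarenal pool, a WT infrarenal pool and a KO infrarenal pool. These members were chosen from the labels by treatment and segment, and no measured value entered the choice. Of the 8 aortic pools in the series, the other 4 were the same segments and genotypes without treatment, and they gave the background for the segment difference.

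All mice were male C57BL/6. The KO pools lacked tenascin C by genotype, treated or not. In the CaAngII mice, 0.5 M calcium chloride was laid around the infrarenal aorta, which the submitters describe as a model of a stiffened vessel, and angiotensin II was infused at 1 µg/min/kg for 1 week. Each CaAngII pool held RNA from 8 mice and each untreated pool RNA from 5 mice. The sources used here name no sham operation and no vehicle infusion for the untreated mice, so surgery, calcium chloride and angiotensin II cannot be told apart in a comparison with them. The suprarenal piece covered 10 mm upward from the right renal artery and the infrarenal piece 10 mm downward from the left one. Because each group was 1 pooled RNA on 1 array, the spread between mice was not measured. The WT and the KO pool served as the 2 estimates of the segment difference. Every p-value below sets a difference against an estimated spread. That spread combined how far those estimates and their untreated counterparts disagree with a trend of spread on signal over all genes.

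The aortic wall has an inner endothelium, a media of contractile smooth muscle between elastic lamellae, and an adventitia of fibroblasts, nerves and resident leukocytes. Calcium chloride laid on the adventitia is a standard way to injure a stretch of vessel: elastic lamellae calcify and break, macrophages enter, and metalloproteinases and cathepsins are secreted. Angiotensin II raises blood pressure and acts on smooth muscle, fibroblasts and leukocytes through the AT1 receptors. Tenascin C is an extracellular matrix glycoprotein that is made in injured and remodelling tissue. In these pools it also served to check the genotype labels.

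The Tnc signal under CaAngII was 2327 and 489 in the WT and KO suprarenal pools, against 2699 and 441 in the WT and KO infrarenal pools. Both WT pools lay above both KO pools, and the segments did not differ beyond the spread (log2 difference 0.034, SE 0.16, adjusted p = 0.897). In the untreated suprarenal and infrarenal pools the Tnc signal was 1805 and 2453 in WT and 257 and 336 in KO. Where the probes of this set lie relative to the deleted part of the gene was not examined here, so the remaining KO signal has no stated origin.

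Of 15188 genes tested, 5037 (33.2%) differed between the segments under CaAngII at an adjusted p under 0.05 in limma, with Benjamini-Hochberg adjustment. Of these, 2417 genes (15.9%) were higher in the infrarenal pools and 2620 (17.3%) were higher in the suprarenal pools. Every difference below is infrarenal minus suprarenal on the log2 scale of the deposited signal, so that 1 stands for a 2-fold change, and it is the mean of the WT and the KO ratio. Among the 12400 brighter genes, which reached the array median on at least 1 of the 4 pools, 645 (5.2%) were at least 2-fold higher in the infrarenal pool of both genotypes and 1001 (8.07%) were at least 2-fold lower in both. The direction was the same in both genotypes for 10213 of those genes (82.4%). The lower set was the larger one at 3-fold as well, with 524 genes against 205. Leaving out 1 CaAngII pool reduced the calls to between 1246 and 1927 genes higher and between 1679 and 2129 genes lower, and these counts fell by over 1.5 times without the WT infrarenal pool (1246 higher, 1679 lower), the WT suprarenal pool (1434 and 1731) or, for the higher genes, the KO infrarenal pool (1371).

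The untreated aorta already differed by segment. Untreated, 2858 genes (18.8%) were called, of which 1135 (7.47%) were higher and 1723 (11.3%) lower in the infrarenal pools. Centring each array on its median turned that split around, to 2115 higher and 1317 lower, because it moved the median untreated difference of all genes by 0.15. Genes lower in the infrarenal segment untreated and under CaAngII numbered 1084, which is 62.9% of the untreated and 41.4% of the CaAngII calls. The matching overlap of higher genes was 512, or 45.1% of the untreated and 21.2% of the CaAngII calls. A further 270 genes were higher under CaAngII and lower untreated, and 124 were lower under CaAngII and higher untreated. The difference between the 2 segment differences, called the interaction below, passed for 1893 genes (12.5%), with 1009 (6.64%) positive and 884 (5.82%) negative. With each array centred on its median, the interaction gave 862 positive and 1378 negative calls, with the median interaction moved by -0.15, while the median CaAngII difference stayed at 0.039. These 2 sets of calls rested on few arrays: leaving out the KO suprarenal, WT infrarenal or KO infrarenal untreated pool left 307, 421 or 362 untreated calls higher and 673, 921 or 808 lower, and leaving out the WT suprarenal untreated pool left 612 higher. Interaction calls fell by over 1.5 times without the WT infrarenal CaAngII pool (527 positive, 435 negative), the KO suprarenal untreated pool (562 and 450), the KO infrarenal untreated pool (536 and 337) and, for negative calls, the WT infrarenal untreated pool (429). The untreated and the CaAngII contrasts shared no array, but they shared 1 estimate of the spread.

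**Figure D1:**
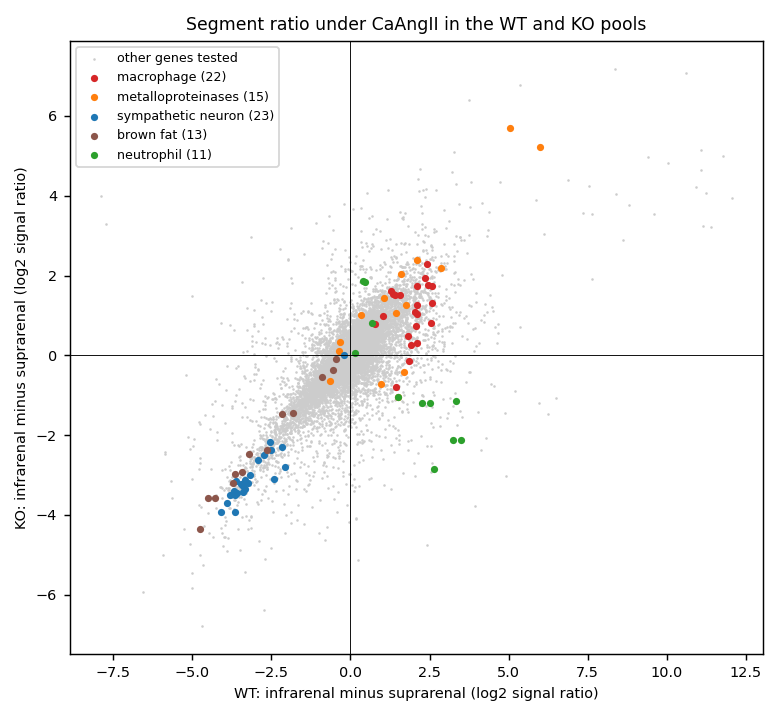
Infrarenal minus suprarenal log2 ratio under CaAngII in the WT pools (horizontal) and the KO pools (vertical), 1 point per gene tested. Macrophage and metalloproteinase genes lie in the upper right, sympathetic neuron and brown fat genes in the lower left, and most neutrophil genes to the right of 0 in WT and below 0 in KO.

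The dissected pieces held more than aortic wall, and the amounts differed by segment. Smooth muscle transcripts were bright in all 4 CaAngII pools: the signal of Acta2, smooth muscle actin, was 22726 in the WT and 26776 in the KO infrarenal pool, beside 23734 and 24226 in their suprarenal counterparts. The segments overlapped for this probe set (log2 difference 0.041, SE 0.11, adjusted p = 0.802), which lay near the top of the arrays' range. A pair of dimmer Acta2 probe sets gave 3091 and 2246 suprarenal against 1332 and 1182 infrarenal, and 767 and 660.3 against 407 and 364, so both were lower in the infrarenal pools. With all probe sets averaged, the Acta2 difference was -0.64 (adjusted p = 0.00357). In bulk RNA of this kind, fewer cells of a type and less RNA per cell cannot be told apart. The marker sums below add the linear signals of a list's members on each array, and their part in the other results was not tested.

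Sympathetic neuron and chromaffin genes were lower at the infrarenal segment almost without exception. Of 23 genes tested, 22 were lower in the infrarenal pools under CaAngII, against 17.3% of all genes, and none was higher. The list's median difference was -3.33, beside 0.039 over all genes tested. The signal of Th, tyrosine hydroxylase of catecholamine synthesis, was 7319.6 (WT) and 6514 (KO) in the suprarenal pools and 599 (WT) and 730.0 (KO) in the infrarenal pools. Both suprarenal pools stood far above both infrarenal pools (log2 difference -3.38, SE 0.18, adjusted p = 3.61e-05). Dbh, which converts dopamine to noradrenaline, differed by -3.09 and the neuropeptide gene Npy by -2.44. Scg2 (a secretory granule protein) differed by -4.01, the vesicular monoamine transporter Slc18a2 by -3.81 and the neuronal filament gene Prph by -3.65. Untreated pools showed the same list at 22 of 23 lower, with a median of -2.54. The interaction was negative for 8 of the 23, with a median of -0.71, and that count was 2, 4, 3, 1 and 2 without the WT suprarenal untreated, WT suprarenal CaAngII, WT infrarenal CaAngII, KO infrarenal untreated and KO infrarenal CaAngII pool, 4 with probe sets averaged and 0 without the variance trend. The summed marker signal under CaAngII was 145237 and 131144 in the suprarenal and 15787 and 16129.7 in the infrarenal WT and KO pools. The 15 genes with the lowest shared ratio included the neuronal genes Stmn4 (-4.47), Kcnq3 (-4.90), Mt3 (-4.45) and Mapk10 (-4.25).

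Brown fat genes were further apart between the segments under CaAngII than they were in untreated mice. Of 13 tested, 10 were lower in the infrarenal CaAngII pools, with a list median of -2.84, and 8 were lower untreated, with a median of -0.85. The untreated count was 5 without any 1 of the 4 untreated pools. Ucp1, the uncoupling protein of heat-producing fat, read 10636 and 6235 in the WT and KO suprarenal pools, against 391 and 307 in the WT and KO infrarenal pools. In the untreated pools it read 15023 and 10594 suprarenal and 5716 and 5125 infrarenal, so the infrarenal CaAngII pools were the low ones among all 8. Its difference was -4.56 under CaAngII (SE 0.14, adjusted p = 1.36e-05) and -1.22 untreated, and the interaction was -3.34 (adjusted p = 0.000364). Cidea, a lipid droplet protein, differed by -3.31, the muscle and brown fat cytochrome oxidase subunit Cox7a1 by -3.93 and the fatty acid carrier Fabp3 by -3.17. The interaction was negative for 8 of the 13 genes, against 5.82% of all genes.

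General fat genes were lower in the infrarenal CaAngII pools as well, and untreated pools showed no such difference at the threshold. Of 15 tested, 11 were lower under CaAngII (median -1.20) and 0 untreated (median 0.093). Pparg, the transcription factor of fat cells, read 445 in the WT and 490.1 in the KO infrarenal pool, beside 1299.7 and 1386 in their suprarenal counterparts. Both infrarenal CaAngII pools were the lowest of all 8 (log2 difference -1.52, SE 0.11, adjusted p = 8.49e-05). Dgat2, which makes triglyceride, differed by -1.57, and the lipases Pnpla2 and Lipe by -1.36 and -1.32, although with its probe sets averaged Lipe did not pass (-0.28, adjusted p = 0.793). Adipoq, adiponectin, differed by -0.32 and did not pass (adjusted p = 0.0667), but it passed with quantile normalization (-0.47, adjusted p = 0.00283) and without the KO infrarenal CaAngII pool (-0.48, adjusted p = 0.0155).

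Exocrine pancreas genes were bright in both infrarenal CaAngII pools and dim in the other 6. Of 9 tested genes of the pancreas and liver list, 7 were higher there, or 3 with a robust variance model, and none passed untreated. Prss2, a trypsinogen, read 7.43 (WT) and 119 (KO) in the suprarenal pools and 14453 (WT) and 2203 (KO) in the infrarenal pools. The WT infrarenal pool was the highest and the KO infrarenal pool the next, and the 4 untreated pools read 19.1, 41.2, 19.1 and 17.4 (log2 difference 7.57, adjusted p = 0.00297, or 0.0501 with a robust variance model). Ctrb1, chymotrypsinogen, gave 14152 and 2620.0 in those infrarenal pools. The summed signal of the list was 82159.7 in WT and 13256 in KO infrarenal tissue and 708 and 1359.6 in the suprarenal pools. Pancreatic genes such as the lipase Pnliprp2, the carboxypeptidases Cpa1 and Cpb1 and the Reg genes took most of the 15 highest shared ratios, and Brinp3, Ibsp, Mmp13, Mmp12 and Tnn were also among them.

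Other tissue marked single pools as well. Genes of the adrenal cortex were bright in the WT suprarenal CaAngII pool and the KO infrarenal untreated pool: Hsd3b1, a steroid dehydrogenase, read 1425 and 11.4 in the WT and KO suprarenal pools, against 6.08 and 182 in the WT and KO infrarenal pools, and 2613 in that untreated pool. Cyp11a1, which starts steroid synthesis, read 219.5 in the former and 424 in the latter and at most 9.54 elsewhere. Skeletal muscle sums under CaAngII were 11509 and 25571 suprarenal and 10169 and 24332 infrarenal in WT and KO, higher in KO than in WT in both segments. Untreated, they were 106417 and 5686 suprarenal and 28386 and 2406 infrarenal in WT and KO, higher in WT in both segments. The WT suprarenal untreated pool, the highest, enters the untreated and interaction contrasts, and its part in them was not tested. Schwann cell genes gave no call among 10 under CaAngII, with a median of -0.45.

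**Figure D2:**
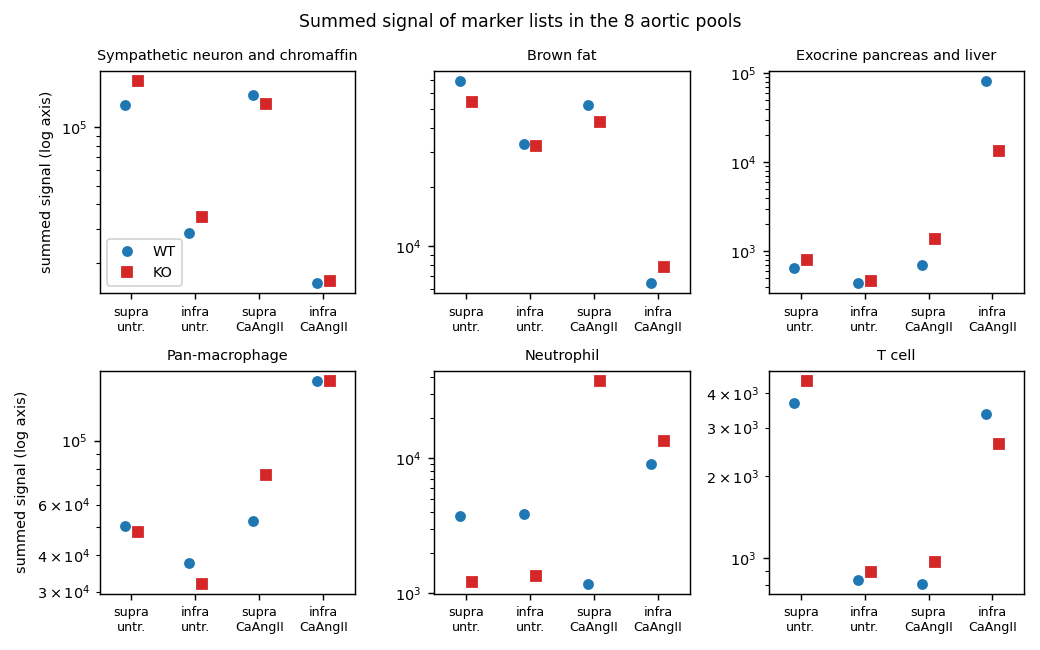
Summed signal of 6 marker lists in the 8 aortic pools (log axis), 1 point per pool. Sympathetic and brown fat sums are lowest in the 2 infrarenal CaAngII pools, pancreas sums are highest there, and the neutrophil sum is highest in the KO suprarenal CaAngII pool.

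Macrophage genes were higher at the calcium chloride-treated segment as a group. Of 22 general macrophage genes tested, 18 were higher in the infrarenal CaAngII pools, against 15.9% of all genes, none was lower, and the median was 2.07 in WT and 1.18 in KO. Without treatment none was higher and 7 were lower (median -0.36), and the latter count fell to 3 without the KO suprarenal and 1 without the KO infrarenal untreated pool. The interaction was positive for 17 of 22, against 6.64% of all genes. The signal of Cd68, a lysosomal macrophage protein, was 4940.1 in the WT and 4824 in the KO infrarenal pool, beside 827 and 1435 in their suprarenal counterparts. Infrarenal pools were clear of the suprarenal ones, and the KO suprarenal pool was the higher of that pair (log2 difference 2.16, SE 0.26, adjusted p = 0.00068). Cybb, the catalytic subunit of the phagocyte NADPH oxidase, read 805 (WT) and 847 (KO) in the suprarenal pools and 4346 (WT) and 4159 (KO) in the infrarenal pools. The genotypes were nearly level within each segment (log2 difference 2.36, SE 0.11, adjusted p = 3.35e-05). Aif1, Mpeg1, Clec7a (a beta-glucan receptor) and Ctss (cathepsin S) differed by 2.14, 2.10, 1.96 and 1.92. The summed list signal was 52557 and 75876 in the suprarenal and 160754 and 160587 in the infrarenal CaAngII pools, and between 31964 and 50754 in the untreated pools.

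Genes of lipid-laden, phagocytosing macrophages included some of the widest differences. Of these, 14 of 19 tested were higher and 2 lower. Trem2, a lipid-sensing receptor, gave 97.7 and 16.9 in the WT and KO suprarenal pools, against 1304 and 1436 in the WT and KO infrarenal pools. It was near the bottom of the array in the untreated pools, at 8.74 to 12.6, and high in the infrarenal CaAngII pools of both genotypes (log2 difference 5.07, SE 0.68, adjusted p = 0.00108). Gpnmb, a glycoprotein of phagolysosomes, gave 7476 in the WT and 8502 in the KO infrarenal pool, beside 686 and 615 in their suprarenal counterparts. Its infrarenal pools were 12.3-fold above the suprarenal ones on average (log2 difference 3.62, SE 0.18, adjusted p = 3.54e-05), and its untreated difference was 1.36. The galectin Lgals3 differed by 1.79 and the lysosomal lipase Lipa by 1.16. Syngr1, a member of this list that is also a synaptic vesicle protein, was lower (-2.37), while a second probe set of that gene differed by 0.46 in the other direction.

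Among resident vascular macrophage genes the calls were mostly higher in both states. Of 13 tested, 7 were higher and 2 lower under CaAngII (median 0.66), against 15.9% and 17.3% of all genes. In the untreated pools 7 were higher and 1 lower (median 0.54), or 2 higher without the variance trend. The interaction was positive for 4, or 2 with probe sets averaged, and negative for 2 (median 0.285). Under CaAngII the mannose receptor Mrc1 differed by 1.02 and the scavenger receptor Stab1 by 0.98. Cd163, the haemoglobin scavenger receptor, read 1257 (WT) and 1182 (KO) in the suprarenal pools and 726 (WT) and 756 (KO) in the infrarenal pools. The suprarenal pools were the higher ones (log2 difference -0.72, SE 0.11, adjusted p = 0.00193), whereas untreated Cd163 was higher in the infrarenal pools (log2 0.75, SE 0.11, adjusted p = 0.00348), and the interaction was -1.47 (adjusted p = 0.00151).

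Osteoclasts are multinucleated cells of the macrophage lineage that resorb mineral with acid and cathepsin K. Of 15 genes of that programme tested, 7 were higher in the infrarenal CaAngII pools and none lower (median 0.64), against 15.9% and 17.3% of all genes. In the untreated pools 5 were already higher and 1 lower (median 0.61), or 2 higher without the variance trend. The interaction was positive for 5 and negative for 1 (median 0.43). Under CaAngII Atp6v0d2, a subunit of the acid pump that osteoclasts use, read 110.0 and 96.0 in the WT and KO suprarenal pools, against 1558 and 1957 in the WT and KO infrarenal pools. Every pool but the 2 infrarenal CaAngII pools lay between 61.4 and 110.0 (log2 difference 4.09, SE 0.24, adjusted p = 4.74e-05). Tnfsf11, the cytokine RANKL that drives osteoclast formation, read 734 in the WT and 507 in the KO infrarenal pool, beside 36.1 and 58.0 in their suprarenal counterparts. The infrarenal pools were high in both genotypes (log2 difference 3.74, SE 0.38, adjusted p = 0.000293), and the untreated segments differed the other way (log2 -1.86, SE 0.38, adjusted p = 0.0131, or 0.0731, 0.0828 and 0.0939 without the WT suprarenal, KO suprarenal and WT infrarenal untreated pool and 0.0794 for the probe set of largest variance). Ctsk, cathepsin K, read 1875 (WT) and 1352 (KO) in the suprarenal pools and 9660.0 (WT) and 10948 (KO) in the infrarenal pools. Its segments did not overlap under CaAngII (log2 difference 2.69, SE 0.15, adjusted p = 4.03e-05) nor untreated (log2 1.18, SE 0.15, adjusted p = 0.00187). Acp5, tartrate-resistant acid phosphatase, stood at 3501, 3277, 3828 and 4492 in the same pool order, a difference of 0.29 that did not pass (adjusted p = 0.185), or 0.54 and past the threshold without the WT infrarenal CaAngII pool (adjusted p = 0.0395). Dcstamp, the fusion protein, differed by 2.28 and did not pass (adjusted p = 0.0755). It passed on the log2(value + 32) scale (1.19, adjusted p = 0.0338), without the KO suprarenal untreated pool (adjusted p = 0.047) and without the KO suprarenal CaAngII pool (3.57, adjusted p = 0.0206).

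Cartilage and bone matrix genes were partly higher. Of 25 tested, 8 were higher and 5 lower under CaAngII, with a median of 0.39, against 15.9% and 17.3% of all genes. The higher count fell to 4 without the WT and 5 without the KO infrarenal CaAngII pool, and the lower count to 1, 2 and 1 without the WT suprarenal, KO suprarenal and WT infrarenal CaAngII pools. In the untreated pools 7 of the 25 were already higher and 1 lower (median 0.32), or 3 higher without the variance trend. The interaction was positive for 3 and negative for 5 (median 0.20). These were 5 positive on the log2(value + 32) scale and 2 negative without the trend. Col2a1, the collagen of cartilage, read 43.4 and 21.7 in the WT and KO suprarenal CaAngII pools. It read 418 and 741 in the WT and KO infrarenal ones. The infrarenal signals were the only ones above 52.2 among the 8 pools (log2 difference 4.18, SE 0.49, adjusted p = 0.000567). Acan, the large proteoglycan of cartilage, differed by 2.07 and Comp, a cartilage matrix protein also made by vascular smooth muscle, by 2.58. Ibsp, bone sialoprotein, read 746 in the WT and 973 in the KO infrarenal pool, beside 18.1 and 8.88 in their suprarenal counterparts. The suprarenal values are near the bottom of the array, so the ratio of 6.07 (adjusted p = 0.00228) is set partly by the low end, and adjusted p was 0.0504 and 0.0658 without the WT and the KO infrarenal CaAngII pool. Sox9, the transcription factor of chondrocytes, read 58.2 (WT) and 34.9 (KO) in the suprarenal pools and 84.2 (WT) and 89.9 (KO) in the infrarenal pools and did not pass (log2 difference 0.95, SE 0.43, adjusted p = 0.134).

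Matrix metalloproteinases, secreted or membrane-bound enzymes that cut collagen and elastin, were higher at the injured segment in several of their subclasses. Of 15 tested, 7 were higher in the infrarenal CaAngII pools, against 15.9% of all genes, none was lower, and the median was 1.24. In the untreated pools 5 were higher and none lower (median 0.54), or 1 higher without the variance trend. The interaction was positive for 5 and negative for none. The collagenase Mmp13 and the macrophage elastase Mmp12 were among the genes with the widest shared ratios, and the stromelysin Mmp3 also passed under CaAngII. These 3 genes lie near one another on chromosome 9 in the RefSeq table (build GRCm38.p6). Their promoter windows, the 250 bases before the start, are printed because each holds the letters TGAGTCA, the textbook site of the AP-1 transcription factor, shown in capitals. In Mmp13 the site reads on the other strand, as TGACTCA.

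Mmp13 (chr9:7272264-7272513, plus strand): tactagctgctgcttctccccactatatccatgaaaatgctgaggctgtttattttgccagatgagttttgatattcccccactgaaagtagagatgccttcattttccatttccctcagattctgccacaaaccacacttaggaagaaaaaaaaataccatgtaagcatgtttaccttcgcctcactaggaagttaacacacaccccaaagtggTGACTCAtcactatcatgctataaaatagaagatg
Mmp12 (chr9:7347124-7347373, plus strand): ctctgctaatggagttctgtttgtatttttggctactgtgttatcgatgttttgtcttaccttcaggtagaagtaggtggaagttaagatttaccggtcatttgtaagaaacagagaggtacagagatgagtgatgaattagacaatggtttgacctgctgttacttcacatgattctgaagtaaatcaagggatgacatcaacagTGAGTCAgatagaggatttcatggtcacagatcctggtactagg
Mmp3 (chr9:7445572-7445821, plus strand): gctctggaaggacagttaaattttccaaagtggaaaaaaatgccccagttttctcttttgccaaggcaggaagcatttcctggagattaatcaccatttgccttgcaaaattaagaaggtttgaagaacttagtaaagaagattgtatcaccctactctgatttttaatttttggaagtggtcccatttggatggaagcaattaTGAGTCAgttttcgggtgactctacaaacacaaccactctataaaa

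TGAGTCA was searched on both strands. The letters occurred in 1466 of 32851 promoter windows (4.46%), and in 540 of 12136 tested genes that had a window (4.45%). Among the metalloproteinases, 5 of 10 tested genes with a window held them, and 3 of the 5 with a window that were called higher. Of the interferon-stimulated genes described below, 4 of the 18 called higher with a window held TGAGTCA too (22.2%). The Mmp12 window shown is that of the second listed start, and the window of the first start held no match. A match is a description of the letters and not evidence of binding.

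The Mmp13 signal was 91.9 and 122 in the WT and KO suprarenal pools, against 5831 and 4547 in the WT and KO infrarenal pools. The infrarenal pools of both genotypes stood 48.6-fold above the suprarenal ones (log2 difference 5.60, SE 0.29, adjusted p = 3.61e-05), and the untreated pools lay between 12.1 and 23.0. Mmp12 gave 4503 in the WT and 4499.6 in the KO infrarenal pool, beside 135 and 86.0 in their suprarenal counterparts. WT and KO were level in the infrarenal segment (log2 difference 5.38, SE 0.28, adjusted p = 3.61e-05), and the interaction was 4.45 (adjusted p = 0.00102). Mmp3 gave 2423 (WT) and 3965 (KO) in the suprarenal pools and 17799 (WT) and 18185 (KO) in the infrarenal pools. The KO suprarenal pool was above the WT one, and both were far below the infrarenal pair (log2 difference 2.54, SE 0.25, adjusted p = 0.000279).

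Metalloproteinases that act at the cell surface or on gelatin followed. Mmp14, the membrane collagenase that also activates Mmp2, gave 1722 and 1573 in the WT and KO suprarenal pools, against 7412 and 8238 in the WT and KO infrarenal pools. Its segments were separate in both genotypes (log2 difference 2.25, SE 0.11, adjusted p = 3.35e-05), and the interaction was 1.77 (adjusted p = 0.000891). The gelatinase Mmp2 gave 12526 in the WT and 14170.1 in the KO infrarenal pool, beside 4152 and 3478 in their suprarenal counterparts. It was higher in the infrarenal segment untreated too (log2 0.70, SE 0.12, adjusted p = 0.00602, or 0.0648 and 0.0639 without the KO suprarenal and the WT infrarenal untreated pool), and the difference under CaAngII was 1.81 (adjusted p = 6.02e-05). The other gelatinase, Mmp9, read 324 (WT) and 1711 (KO) in the suprarenal pools and 1049 (WT) and 1279 (KO) in the infrarenal pools. The KO suprarenal pool was the highest of the 4, and the difference did not pass (log2 difference 0.64, SE 0.58, adjusted p = 0.441). Without that pool it did (1.88, adjusted p = 0.00119).

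The tissue inhibitors of metalloproteinases did not move together. Timp4 gave 1395 and 1108 in the WT and KO suprarenal pools, against 731 and 668 in the WT and KO infrarenal pools. Its infrarenal pools were the lower ones under CaAngII (log2 difference -0.83, SE 0.12, adjusted p = 0.00148) and the higher ones untreated (log2 0.87, SE 0.12, adjusted p = 0.00266), and the interaction was -1.70 (adjusted p = 0.00131). Timp2 was higher (log2 difference 0.70, SE 0.12, adjusted p = 0.00313). Timp1 read 10086 in the WT and 9796 in the KO infrarenal pool, beside 2595 and 7437 in their suprarenal counterparts, with a wide gap between the suprarenal pools and a difference of 1.18 that did not pass (adjusted p = 0.0801). It passed with the 4 CaAngII pools alone (adjusted p = 0.0495) and without the KO suprarenal CaAngII pool (2.13, adjusted p = 0.000288). Timp3 differed by 0.082 (adjusted p = 0.553).

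**Figure D3:**
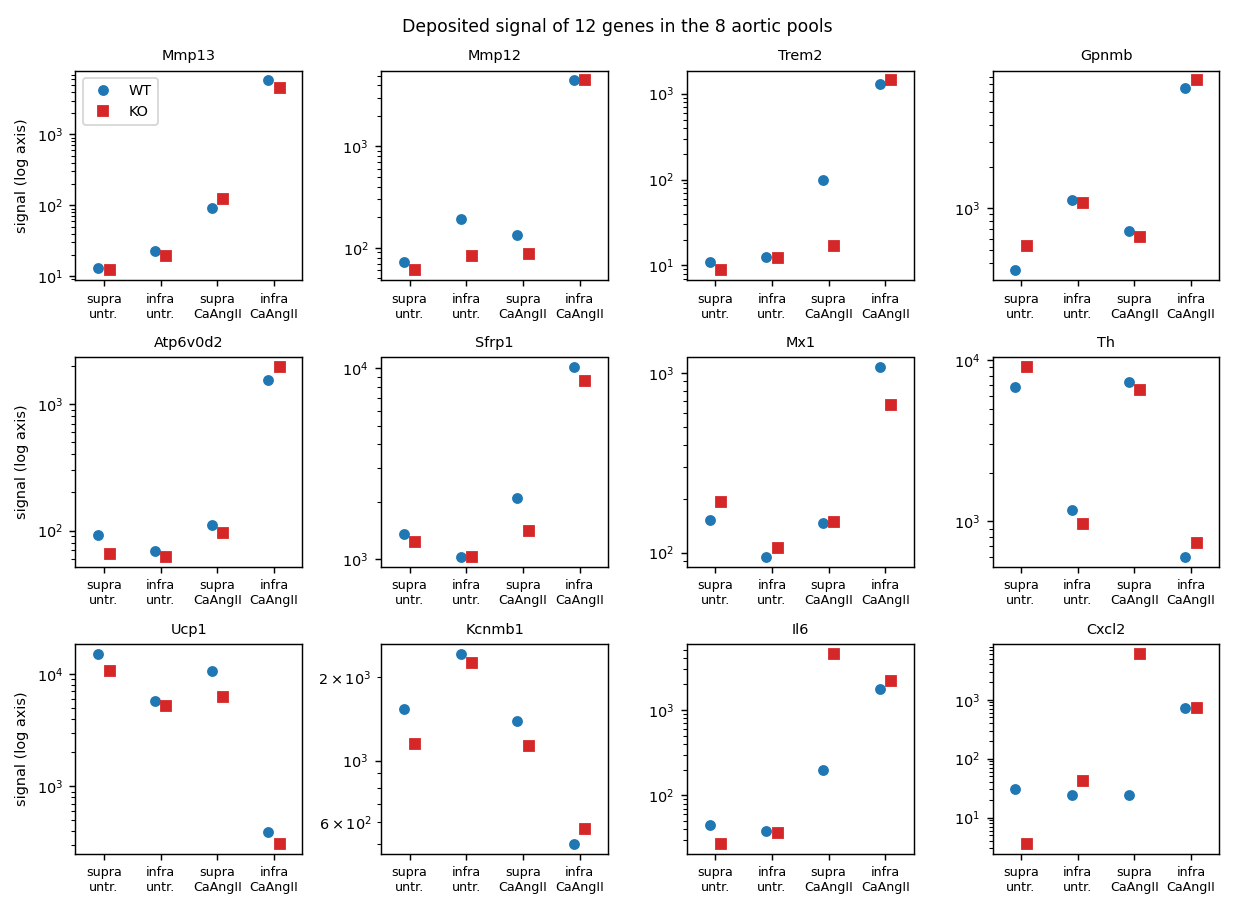
Deposited signal (log axis) of 12 genes in the 8 aortic pools, WT as circles and KO as squares. Mmp13, Mmp12, Trem2, Atp6v0d2, Gpnmb, Sfrp1 and Mx1 are highest in the infrarenal CaAngII pools of both genotypes, Th is low in every infrarenal pool, Ucp1 and Kcnmb1 are lowest in the infrarenal CaAngII pools, and Il6 and Cxcl2 are highest in the KO suprarenal CaAngII pool.

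Lysosomal proteases were shifted in the same direction. Of 16 cathepsins and their cystatin inhibitors tested, 12 were higher and none lower, with a median of 0.57. Besides Ctsk and Ctss, legumain (Lgmn), which activates cathepsins, differed by 1.35, the granule-activating cathepsin C by 1.12, given as Ctsc, and Ctsh by 1.07. Ctsl differed by 0.58. Complement genes were higher too, at 12 of 15 with 1 lower and a median of 1.44. In the untreated pools 5 of them were higher and 2 lower (median 0.40). Under CaAngII C1qa, a chain of the recognition molecule C1q, read 4809.6 (WT) and 4497 (KO) in the suprarenal pools and 12876 (WT) and 12729.9 (KO) in the infrarenal pools. Both infrarenal pools were clear of every other pool (log2 difference 1.46, SE 0.11, adjusted p = 9.36e-05). C1ra and C2 of the classical pathway differed by 1.72 and 1.95, Cfb of the alternative pathway by 1.62 and the anaphylatoxin receptor C3ar1 by 2.10.

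Fibril-forming collagen genes were partly higher at the infrarenal segment under CaAngII. In this list 8 of 11 passed and none was lower, with a median of 0.82. That count was 5 without the KO suprarenal or without the KO infrarenal CaAngII pool. Col1a1, the main chain of type I collagen, gave 6269.7 and 4854 in the WT and KO suprarenal pools, against 15626 and 15879.6 in the WT and KO infrarenal pools. The infrarenal pools were the highest of all 8 (log2 difference 1.51, SE 0.11, adjusted p = 9.37e-05), and the untreated difference was 0.75 (adjusted p = 0.00384, or 0.0505 and 0.0542 without the KO suprarenal and the KO infrarenal untreated pool). Col3a1, of type III collagen, gave 27597 in the WT and 33702 in the KO infrarenal pool, beside 24192 and 23784 in their suprarenal counterparts. Its difference of 0.35 was just past the threshold (adjusted p = 0.0498) and rose to between 0.0508 and 0.23 without any 1 pool other than the WT infrarenal CaAngII pool. Col11a1, a minor fibril chain known from cartilage, differed by 2.79.

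Other interstitial collagens gave 9 of 12 higher and 1 lower, with a median of 1.14. In the untreated pools 7 were already higher and none lower (median 0.48), or 2 higher without the variance trend. Under CaAngII Col12a1, which sits on the surface of type I fibrils, read 1106 (WT) and 879 (KO) in the suprarenal pools and 5045 (WT) and 4509 (KO) in the infrarenal pools. The segments did not overlap (log2 difference 2.27, SE 0.13, adjusted p = 4.03e-05, or 0.145 with its probe sets averaged). Col8a1 and Col8a2, short-chain collagens of vessel walls, differed by 1.92 and 3.30, and the Col8a1 difference was of like size untreated (1.80, interaction 0.12, adjusted p = 0.808), although its probe set of largest variance did not pass under CaAngII (adjusted p = 0.103). Enzymes that modify and cross-link collagen were higher for 15 of 17, among them the procollagen protease Bmp1 (1.48), the lysyl oxidase Loxl3 (1.22) and the prolyl hydroxylase P4ha2 (0.96). Of 2 other Bmp1 probe sets, 1 differed by 1.47 and a dim one by -0.084. Untreated, 11 of these enzymes were higher too, but 7, 0, 2 and 4 without the WT suprarenal, KO suprarenal, WT infrarenal and KO infrarenal untreated pool, 6 with the probe set of largest variance and 2 without the variance trend.

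Of the elastic fibre list, 10 of 15 genes were higher and 1 lower under CaAngII (median 0.84), against 15.9% and 17.3% of all genes. In the untreated pools 8 were already higher and 2 lower (median 0.44), or 4 higher without the variance trend. The interaction was positive for 4 and negative for 3 (median 0.20), or 2 and 1 without the trend. Under CaAngII Fbn2, the fibrillin best known from developing tissue, gave 94.0 and 82.3 in the WT and KO suprarenal pools, against 814 and 851 in the WT and KO infrarenal pools. The infrarenal CaAngII pools were 9.46-fold above the suprarenal ones (log2 difference 3.24, SE 0.24, adjusted p = 9.21e-05). Untreated Fbn2 was lower in the infrarenal pools (log2 -1.04, SE 0.24, adjusted p = 0.0219, rising to between 0.0617 and 0.102 without any 1 of the untreated or infrarenal CaAngII pools and 0.0636 with probe sets averaged), and the interaction was 4.28 (adjusted p = 0.000791). Fbln1, Ltbp2 and Mfap2, other proteins of the microfibril, differed by 1.85, 1.41 and 1.31. Eln, elastin, gave 8588 in the WT and 8966 in the KO infrarenal pool, beside 10259 and 9953 in their suprarenal counterparts. The infrarenal pair was slightly the lower one and the difference did not pass (log2 difference -0.20, SE 0.11, adjusted p = 0.198).

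Matricellular proteins bind cells and matrix without forming fibrils, and tenascin C is one of them. Of the others and Tnc, 10 of 21 tested were higher and 1 lower under CaAngII, with a median of 0.76, against 15.9% and 17.3% of all genes. In the untreated pools 9 were already higher and 2 lower (median 0.42), or 5 higher without the variance trend. The interaction was positive for 5 and negative for 5 (median 0.059), or 3 and 0 without the trend. Under CaAngII Thbs2, thrombospondin 2, read 719 (WT) and 497 (KO) in the suprarenal pools and 4450.3 (WT) and 4425 (KO) in the infrarenal pools. The genotypes were level in the infrarenal segment (log2 difference 2.89, SE 0.19, adjusted p = 5.95e-05). Comp, also called thrombospondin 5, read 1560.2 and 996 in the WT and KO suprarenal pools, against 7567 and 7308 in the WT and KO infrarenal pools. WT was above KO in the suprarenal pools and both infrarenal pools were far higher. Cthrc1, a collagen triple-helix protein of injured arteries, differed by 2.14. Postn, periostin, was bright everywhere at 18889, 19165, 17430.1 and 17395 in WT and KO suprarenal and WT and KO infrarenal pools, with a difference of -0.13 (adjusted p = 0.369), or -0.29 and called lower with quantile normalization (adjusted p = 0.0202). Among other tenascins, Tnn read 127 in the WT and 123 in the KO infrarenal pool, beside 4.76 and 6.07 in their suprarenal counterparts, and its call (difference 4.54, adjusted p = 0.0151) was lost without the WT suprarenal (0.0814), WT infrarenal (0.123) or KO infrarenal (0.161) CaAngII pool. The brain tenascin Tnr differed by -1.72.

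Genes of adventitial fibroblasts were higher for 8 of 15 under CaAngII, with 1 lower, against 15.9% and 17.3% of all genes. In the untreated pools 10 were already higher and 1 lower (median 0.62, beside 0.69 under CaAngII). That higher count was 6 with the probe set of largest variance and 4 without the variance trend. The interaction was positive for 3 and negative for 2 (median -0.052). Under CaAngII Fap, a surface protease of activated fibroblasts, gave 1007 (WT) and 788 (KO) in the suprarenal pools and 3463 (WT) and 3971 (KO) in the infrarenal pools. The infrarenal pools were the highest of the 8 (log2 difference 2.06, SE 0.14, adjusted p = 6.92e-05), and the untreated difference was 0.24 (adjusted p = 0.293). Pdgfra, a PDGF receptor of fibroblasts, differed by 1.06 under CaAngII and 0.89 untreated, with an interaction of 0.16 (adjusted p = 0.479).

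The contractile genes of smooth muscle were mostly higher in the infrarenal segment untreated, and under CaAngII those that passed were lower there. Untreated, 19 of 28 were higher in the infrarenal pools and none lower (median 0.58). Under CaAngII none was higher and 12 were lower (median -0.31, beside 0.039 over all genes). The interaction was negative for 19 of 28, against 5.82% of all genes, with a median of -1.09. These counts depended on single pools. The lower count was 7 without the WT suprarenal CaAngII pool. The untreated count was 4, 6 and 5 and the interaction count 10, 12 and 12 without the KO suprarenal, WT infrarenal and KO infrarenal untreated pool in turn. Untreated calls were 12 with probe sets averaged and 5 without the variance trend, and interaction calls 12 with the probe set of largest variance and 9 without the trend.

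Kcnmb1, the subunit that makes the large potassium channel of smooth muscle sensitive to calcium, gave 1385 and 1132 in the WT and KO suprarenal pools, against 501 and 567 in the WT and KO infrarenal pools. The untreated pools gave 1536 and 1152 suprarenal and 2420.0 and 2239 infrarenal. The infrarenal segment was thus the high one untreated (log2 0.81, SE 0.15, adjusted p = 0.0092, or 0.0937, 0.0625 and 0.083 without the KO suprarenal, WT infrarenal and KO infrarenal untreated pool, 0.0993 with probe sets averaged and 0.057 without the variance trend) and the low one under CaAngII (log2 difference -1.23, SE 0.15, adjusted p = 0.000682), with an interaction of -2.04 (adjusted p = 0.00147). Cnn1, calponin, gave 3961 in the WT and 4725 in the KO infrarenal pool, beside 8679.9 and 7122 in their suprarenal counterparts. Its infrarenal CaAngII pools were the lowest of the 8 (log2 difference -0.86, SE 0.13, adjusted p = 0.00198). Smtn, smoothelin of fully contractile cells, differed by -0.80 and the myosin phosphatase inhibitor Ppp1r14a by -1.02. Npnt, an integrin ligand of the matrix, gave 7204 (WT) and 6371 (KO) in the suprarenal pools and 2649 (WT) and 2346 (KO) in the infrarenal pools and was the list's lowest (log2 difference -1.44, SE 0.10, adjusted p = 7.54e-05, or 0.0944 for its probe set of largest variance). Myh11, the smooth muscle myosin heavy chain, gave 12787 and 11497 in the WT and KO suprarenal pools, against 8638 and 9968 in the WT and KO infrarenal pools. The infrarenal pair was the lower one by a small margin (log2 difference -0.39, SE 0.10, adjusted p = 0.0257), which was lost without the WT suprarenal (0.211) or WT infrarenal (0.13) CaAngII pool or the WT or KO infrarenal untreated pool (0.0575 and 0.0577), and Tagln read a difference of -0.15 (adjusted p = 0.293), or -0.28 and called lower with quantile normalization (adjusted p = 0.0156).

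**Figure D4:**
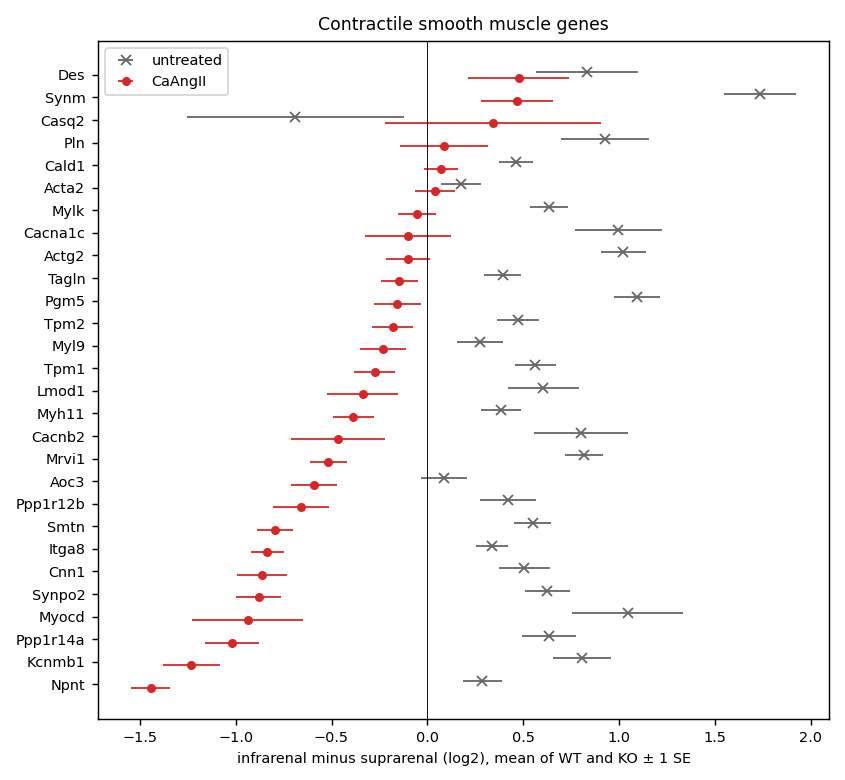
Infrarenal minus suprarenal log2 difference of the 28 contractile smooth muscle genes tested, untreated and under CaAngII, with error bars of 1 SE from the limma fit. Untreated points lie above 0 except Casq2, most CaAngII points lie below it, and Kcnmb1 and Npnt are the lowest under CaAngII.

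Endothelial genes were called higher in the infrarenal segment for 15 of 21 untreated and 10 under CaAngII, with 1 lower under CaAngII. The interaction was negative for 7, or 4 with probe sets averaged, 2 without the variance trend, 4 without the KO suprarenal untreated pool and 3 without the WT infrarenal untreated, KO infrarenal untreated or WT infrarenal CaAngII pool. The CaAngII count fell to 3, 3, 5 and 3 without the WT suprarenal, KO suprarenal, WT infrarenal and KO infrarenal CaAngII pool. It was 5 with the 4 CaAngII pools alone, without the variance trend or with the probe set of largest variance. The untreated count was 8 without the WT infrarenal untreated pool and 9 without the trend. Plvap, a protein of endothelial openings, gave 2762 in the WT and 2528 in the KO infrarenal pool, beside 1242 and 1182 in their suprarenal counterparts. Its infrarenal pools were higher under CaAngII (log2 difference 1.12, SE 0.11, adjusted p = 0.000255) and untreated (log2 0.65, SE 0.11, adjusted p = 0.00629, or 0.0655 without the WT infrarenal untreated pool). Pecam1, the adhesion protein CD31, was 1922 (WT) and 1708 (KO) in the suprarenal pools and 1909 (WT) and 1923 (KO) in the infrarenal pools. The untreated difference (log2 1.14, SE 0.10, adjusted p = 0.000554) was not matched under CaAngII (log2 difference 0.08, SE 0.10, adjusted p = 0.59), and the interaction was -1.06 (adjusted p = 0.00368).

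Transcripts of energy metabolism were lower at the infrarenal segment under CaAngII. Fatty acid oxidation gave 17 of 18 lower and none higher, with a median of -1.31. Oxidative phosphorylation and the citric acid cycle gave 16 of 17 lower, with a median of -1.10. Untreated medians were -0.48 and -0.40. Ppara, the nuclear receptor that turns on fatty acid oxidation, gave 745 and 465 in the WT and KO suprarenal pools, against 104 and 85.9 in the WT and KO infrarenal pools. Its infrarenal CaAngII pools were the lowest of the 8 (log2 difference -2.64, SE 0.18, adjusted p = 6.4e-05). Acadvl, which starts the oxidation of long chains, gave 1755 in the WT and 2303 in the KO infrarenal pool, beside 6935 and 6394 in their suprarenal counterparts. The KO infrarenal pool lay above the WT one and both lay below every other pool (log2 difference -1.73, SE 0.14, adjusted p = 0.00012). Idh3a, a citric acid cycle dehydrogenase, differed by -1.54, Acaa2 of the last oxidation step by -1.95 and the electron carrier Cycs by -1.21. Glycolysis and hypoxia genes gave 14 of 19 lower and 2 higher, with Pgk1 at -1.41 (adjusted p = 8.36e-05, or 0.0642 for its probe set of largest variance), Aldoa at -1.30 and Pfkl at -1.40. The brown fat markers described above, which are rich in mitochondria, moved with these lists, and their part in them was not tested.

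Interferon-stimulated genes, which cells switch on after type I or type II interferon, were higher in the infrarenal CaAngII pools throughout the list. All told, 23 of 23 tested passed and none was lower, with a median of 1.16. The count was 15 without the WT infrarenal CaAngII pool. Untreated, 1 was higher and none lower (median 0.047). Promoter windows of 3 of these genes are printed because they hold GAAA, then any 2 bases, then GAAA again, the core of the interferon-stimulated response element, in capitals.

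Ifit1 (chr19:34640639-34640888, plus strand): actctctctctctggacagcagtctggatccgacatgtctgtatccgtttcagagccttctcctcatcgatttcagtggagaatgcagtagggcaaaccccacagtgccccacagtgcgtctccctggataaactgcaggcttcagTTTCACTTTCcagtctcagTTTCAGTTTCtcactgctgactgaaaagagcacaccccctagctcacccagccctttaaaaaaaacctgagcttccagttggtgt
Oas1a (chr5:120907526-120907775, minus strand): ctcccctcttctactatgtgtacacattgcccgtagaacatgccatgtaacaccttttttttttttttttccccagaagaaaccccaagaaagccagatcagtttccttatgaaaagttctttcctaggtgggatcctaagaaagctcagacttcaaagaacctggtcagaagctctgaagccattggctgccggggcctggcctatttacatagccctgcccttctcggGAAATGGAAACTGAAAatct
Cxcl10 (chr5:92348890-92349139, minus strand): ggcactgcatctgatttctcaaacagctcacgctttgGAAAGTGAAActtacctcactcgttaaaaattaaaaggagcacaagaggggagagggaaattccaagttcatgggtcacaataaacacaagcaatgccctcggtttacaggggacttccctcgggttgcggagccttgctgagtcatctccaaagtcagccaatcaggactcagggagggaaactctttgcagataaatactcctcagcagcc

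Both strands were searched, so the element may read in either direction in the capitals, and overlapping matches run together as in Oas1a. The letters occurred in 978 of 32851 windows (2.98%) and in 387 of 12136 tested genes with a window (3.19%). Of the 18 interferon list genes called higher that had a window, 10 held them (55.6%). The list holds genes named for their response to interferon, so this share describes the choice of list.

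Mx1, an antiviral GTPase, gave 146 (WT) and 147 (KO) in the suprarenal pools and 1082 (WT) and 669 (KO) in the infrarenal pools. WT was above KO in the infrarenal segment, and both were above all 6 other pools (log2 difference 2.54, SE 0.26, adjusted p = 0.000327). Oas1a, which makes the messenger that activates RNase L, gave 772 and 892 in the WT and KO suprarenal pools, against 3088 and 2466 in the WT and KO infrarenal pools. The suprarenal pools under CaAngII were also above the untreated ones, which lay between 432 and 536 (log2 difference 1.73, SE 0.15, adjusted p = 0.000175). Ifit1, which binds foreign RNA caps, differed by 1.39, and Irf7, a transcription factor of the interferon loop, by 1.68. Cxcl10, a chemokine that draws T cells, gave 1630.5 in the WT and 920.5 in the KO infrarenal pool, beside 259 and 278 in their suprarenal counterparts. The segments did not overlap (log2 difference 2.19, SE 0.29, adjusted p = 0.000955), and its receptor gene Cxcr3 differed by 1.79.

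Antigen presentation and lymphocyte genes were higher at the infrarenal segment under CaAngII, while untreated tissue showed the reverse. All 8 MHC class II genes tested were higher under CaAngII (median 1.49), and 7 were lower untreated (median -0.74), a count that was 2 without the KO suprarenal and 3 without the KO infrarenal untreated pool. H2-Ab1, a class II chain, gave 3621 (WT) and 2801 (KO) in the suprarenal pools and 9651 (WT) and 9575 (KO) in the infrarenal pools. Infrarenal pools were the highest of the 8 (log2 difference 1.59, SE 0.14, adjusted p = 0.000152). T cell genes gave 9 of 11 higher, or 5 without the WT infrarenal CaAngII pool, and untreated 10 lower, or 6 without the KO suprarenal or the KO infrarenal untreated pool. Cd8a, of cytotoxic T cells, gave 55.4 and 72.1 in the WT and KO suprarenal pools, against 218 and 188 in the WT and KO infrarenal pools, and 318 and 401 in the suprarenal and 49.7 and 84.5 in the infrarenal untreated pools. The untreated suprarenal pools were therefore the highest of all 8. B cell genes gave 7 of 12 higher and untreated 9 lower. Ms4a1, the B cell antigen CD20, gave 1064 in the WT and 479 in the KO infrarenal pool, beside 131 and 170.3 in their suprarenal counterparts, against 1697 and 2395 in the untreated suprarenal pools. The positive interactions of T and B cell genes (10 of 11 and 10 of 12) thus rest on high untreated suprarenal values as well as on the infrarenal CaAngII pools.

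Neutrophil genes were called in neither direction between the segments, and the WT and KO ratios of most of them, and of several acute inflammatory genes, had opposite signs. Of 11 neutrophil genes tested, none was called under CaAngII, yet the median ratio was 2.26 in WT and -1.15 in KO, and 7 genes were at least 2-fold higher in the WT and at least 2-fold lower in the KO infrarenal pool. Over all genes tested, 110 (0.724%) were 2-fold apart in opposite directions, 79 of them (0.52%) in this sense. The suprarenal CaAngII pools lay on either side of the infrarenal ones. The neutrophil sum was 1184 in the WT suprarenal, 9036 in the WT infrarenal and 13479 in the KO infrarenal pool. The highest sum was 37224, in the KO suprarenal CaAngII pool. Without that pool 5 neutrophil genes were called higher, and without the WT suprarenal CaAngII pool 5 were called lower.

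S100a8, a calcium-binding protein of neutrophils, gave 475 (WT) and 17385 (KO) in the suprarenal pools and 4792 (WT) and 7819 (KO) in the infrarenal pools. The KO suprarenal pool was the highest and the WT suprarenal pool the lowest (log2 difference 1.09, SE 1.44, adjusted p = 0.606). Il6, the acute-phase cytokine, gave 197 and 4526 in the WT and KO suprarenal pools, against 1743 and 2168 in the WT and KO infrarenal pools. The untreated pools lay between 26.9 and 45.4, and the segment ratio was 3.15 in WT and -1.06 in KO. Ccl2, the monocyte chemokine, gave 1327 in the WT and 1467 in the KO infrarenal pool, beside 188 and 4319.9 in their suprarenal counterparts, with ratios of 2.82 and -1.56. Cxcl2, a neutrophil chemokine, gave 24.1 (WT) and 6002 (KO) in the suprarenal pools and 729 (WT) and 733 (KO) in the infrarenal pools, with ratios of 4.92 and -3.03. Cxcl3, its close relative, gave 18.2 and 9265 in the WT and KO suprarenal pools, against 277 and 679.8 in the WT and KO infrarenal pools. In each of these genes the KO suprarenal pool was the highest, the WT suprarenal pool the lowest under CaAngII, and the infrarenal genotypes nearer to each other. None passed the segment test, at adjusted p of 0.501, 0.724, 0.768 and 0.981 in that order. Without the WT suprarenal CaAngII pool Ccl2 (-1.94, adjusted p = 0.0149), Cxcl2 (-3.42, adjusted p = 0.0475), Cxcl3 (-4.30, adjusted p = 0.0039) and Il6 (-1.31, adjusted p = 0.0321) were called lower in the infrarenal pools. Without the KO suprarenal CaAngII pool Ccl2 (3.19, adjusted p = 0.00132), Cxcl2 (5.31, adjusted p = 0.00893), Cxcl3 (4.46, adjusted p = 0.00757), Il6 (3.39, adjusted p = 0.000617) and S100a8 (4.13, adjusted p = 0.00253) were called higher. With 1 pool per genotype and segment, the difference between the genotypes was not tested.

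Chemokine and cytokine lists also depended on single pools, among them the KO suprarenal CaAngII pool. Of 17 CC chemokine and receptor genes, 5 were higher and none lower, or 13 higher without it. Of 18 CXC and related genes, 8 were higher, or 13 without it, and 5 with probe sets averaged or with the probe set of largest variance. Of 16 cytokine genes, 6 were higher, or 11 without it, and 3 without the WT suprarenal or the WT infrarenal CaAngII pool. Members that passed in the full fit and in every fit without 1 pool included Ccl5 (2.28), a T cell chemokine, Ccl8 (1.62), Cxcl16 (2.32), the fractalkine receptor Cx3cr1 (2.09, adjusted p = 0.000275, or 0.0548 with probe sets averaged) and the alarmin Il33 (1.76).

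Hox genes mark position along the body axis, and 9 of 26 tested were higher in the infrarenal CaAngII pools, with none called lower. These counts stand beside 15.9% and 17.3% of all genes. In the untreated pools 6 Hox genes were higher and 1 lower. Among those that did not pass under CaAngII, Hoxa4 was dim and at least 2-fold lower in both genotypes (log2 difference -1.52, SE 0.60, adjusted p = 0.0907). Hoxa9 gave 1609 in the WT and 1707 in the KO infrarenal pool, beside 662 and 573 in their suprarenal counterparts. The infrarenal pools were higher under CaAngII (log2 difference 1.43, SE 0.12, adjusted p = 0.000134) and untreated (log2 1.91, SE 0.12, adjusted p = 0.000253), with an interaction of -0.48 (adjusted p = 0.113), or -0.63 with arrays centred on their median (adjusted p = 0.0391). Hoxa10 gave 239 (WT) and 251 (KO) in the suprarenal pools and 671 (WT) and 797 (KO) in the infrarenal pools, a difference of 1.58 (adjusted p = 0.000185, or 0.218 for its probe set of largest variance) beside 2.61 untreated, and the interaction was negative (-1.03, adjusted p = 0.0156, but between 0.0517 and 0.0838 without the KO suprarenal, WT infrarenal or KO infrarenal untreated pool or the WT infrarenal CaAngII pool). That interaction was -0.57 with probe sets averaged (adjusted p = 0.626), -0.11 for the probe set of largest variance (adjusted p = 0.974) and not past the threshold without the variance trend (adjusted p = 0.0538). Hoxc10 differed by 1.21 and Hoxd8 by 1.11.

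In the Wnt pathway list, 9 of 22 genes were higher and 3 lower under CaAngII, against 15.9% and 17.3% of all genes. In the untreated pools 6 were higher and 4 lower, or 2 and 1 without the variance trend. The interaction was positive for 4, or 2 without the trend, and negative for none. Under CaAngII Sfrp1, a secreted Wnt-binding protein, gave 2092 and 1407 in the WT and KO suprarenal pools, against 10168 and 8632 in the WT and KO infrarenal pools. The infrarenal CaAngII pools were 5.46-fold above the suprarenal ones (log2 difference 2.45, SE 0.14, adjusted p = 4.45e-05), and the interaction was 2.77 (adjusted p = 0.00059). Sfrp4 differed by 2.23, the related Frzb by 1.75 and the receptor Ror2 by 2.23. The Wnt antagonist Dkk1 gave 94.7 in the WT and 95.4 in the KO infrarenal pool, beside 386 and 406 in their suprarenal counterparts. The suprarenal pools were the higher ones (log2 difference -2.06, SE 0.26, adjusted p = 0.000787), as untreated (log2 -1.09, SE 0.26, adjusted p = 0.0239, or 0.168, 0.0757 and 0.177 without the KO suprarenal, WT infrarenal and KO infrarenal untreated pool, 0.108 for the probe set of largest variance and 0.0733 without the variance trend).

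In the TGF-beta pathway 11 of 21 genes were higher and 2 lower, with 7, 7, 7 and 6 higher without the WT suprarenal, KO suprarenal, WT infrarenal and KO infrarenal CaAngII pool, 4 with probe sets averaged and 7 without the trend or with the probe set of largest variance. Tgfbr2, the type II receptor, gave 4554 (WT) and 4839 (KO) in the suprarenal pools and 9784 (WT) and 10668 (KO) in the infrarenal pools. Its infrarenal pools were the highest of the 8 (log2 difference 1.12, SE 0.093, adjusted p = 0.000136, or 0.374 with its probe sets averaged and 0.0716 for the one of largest variance). Tgfbi, a matrix protein induced by TGF-beta, differed by 0.76. Over all genes, 15.9% were higher and 17.3% lower under CaAngII. In the untreated pools 9 of the 21 list genes were already higher and none lower. The list median was 0.40 untreated and 0.37 under CaAngII. That untreated count was 14 with arrays centred on their median, 5 with probe sets averaged and 4 without the variance trend. The interaction was positive for 1 and negative for 4, with a median of 0.0019.

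The angiotensin receptors, through which the infused peptide acts, differed by segment in opposite directions. Agtr1a gave 2515 and 2066 in the WT and KO suprarenal pools, against 383 and 391 in the WT and KO infrarenal pools. It was low in the infrarenal pools in both states (log2 difference -2.56, SE 0.22, adjusted p = 0.000154, and untreated log2 -2.14, SE 0.22, adjusted p = 0.000855). Agtr1b gave 219 in the WT and 192 in the KO infrarenal pool, beside 109.8 and 78.5 in their suprarenal counterparts. It was high in the infrarenal pools untreated, at 759 and 738 (log2 2.71, SE 0.24, adjusted p = 0.000552), and by less under CaAngII (difference 1.14, adjusted p = 0.00873, or 0.074 without the WT infrarenal CaAngII pool), with an interaction of -1.57 (adjusted p = 0.0234, but between 0.0634 and 0.11 without any 1 pool other than the 2 KO suprarenal pools). The 2 receptors are close paralogs, so their probe sets may share signal. Ace, the converting enzyme, differed by -0.089 (adjusted p = 0.699), and the natriuretic peptide clearance receptor Npr3 by -1.14.

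Where 15.9% of all genes were higher and 17.3% lower under CaAngII, a minority of the proliferation genes passed. Among them 10 of 26 mitotic genes were higher and none lower (median 0.72), but 6, 2, 1 and 5 without the WT suprarenal, KO suprarenal, WT infrarenal and KO infrarenal CaAngII pool, 4 with probe sets averaged and 6 with the probe set of largest variance. Rrm2, which makes deoxynucleotides, gave 254 (WT) and 207 (KO) in the suprarenal pools and 579 (WT) and 505 (KO) in the infrarenal pools. The infrarenal CaAngII pools were the highest of the 8 (log2 difference 1.23, SE 0.17, adjusted p = 0.00113). Replication licensing gave 7 of 15 higher, or 4, 2 and 4 without the WT suprarenal, WT infrarenal and KO infrarenal CaAngII pool, 3 with probe sets averaged and 4 without the trend or with the probe set of largest variance, with Cdt1 at 1.26 and Mcm3 at 1.09, of which neither passed with probe sets averaged (adjusted p = 0.194 and 0.0857). Among 16 clock genes none was called, with a median of -0.12.

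**Figure D5:**
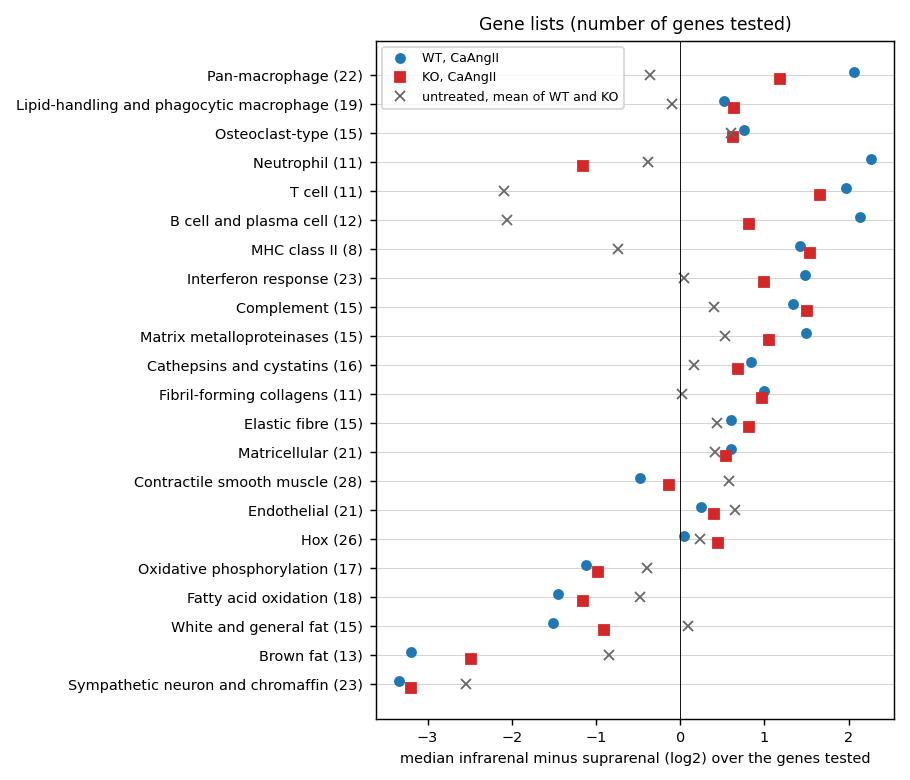
Median infrarenal minus suprarenal log2 ratio of 22 gene lists under CaAngII, WT as circles and KO as squares, and the untreated median of the 2 genotypes as crosses. WT and KO lie close together for most lists and far apart for neutrophil genes, and the contractile, MHC class II, T cell and B cell lists lie on opposite sides of 0 untreated and under CaAngII.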

How the data were processed

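Total RNA of each pool had been hybridised to an Affymetrix Mouse Genome 430 2.0 array, which reads each gene near the 3′ end of its transcripts. The values are linear signal intensities deposited by the authors for 45101 probe sets, made with Affymetrix Expression Console per the submitters' processing notes. For this program the version, the summary method and the scaling are not stated in those notes. The mean of the middle 96% of signals was 500.002 to 500.003 on all 8 aortic arrays, so the arrays carry a common scaling. Their medians were 119.3 to 134.5. No detection calls were used, so a low signal has no stated lower limit of detection.

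The log2 signal was analysed as deposited, with no pseudocount and no further normalization. Control probe sets (64) and those with several symbols (932) or none (9160) in the platform annotation were left out. The other 34945 named 18193 genes, each taken from its probe set of highest mean signal over the 8 pools. Genes had to reach the 30th percentile of the array on at least 2 of the 8 pools, and 15188 did. A limma fit (version 3.58.1, R 4.3.3) with a mean-variance trend had the 4 segment and treatment groups and the genotype as a block. It was fitted on the 8 aortic pools, tested on simulated data, and Benjamini-Hochberg adjustment ran over all 15188 genes at a threshold of 0.05. Each group held 1 WT and 1 KO pool, so a p-value sets a difference against the disagreement of the genotypes. The empirical Bayes step of the fit moderated each gene's spread toward the trend over all genes. A gene's own spread had 3 residual degrees of freedom, beside a median of 4.68 from that trend. The small number of arrays limits the precision.

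The 54 gene lists hold 962 entries, of which 874 had a named probe set and 847 were tested. The members and lists were chosen with earlier results of these data known. The text names Tnc, the 15 genes at each end of the smaller shared log2 ratio, the 10 at each end of the interaction, 8 genes opposite between genotypes, and up to 8 members of a list with the widest differences, or draws from these, and genes listed by name for their role. Ace, Acp5, Adipoq, Dbh and Npy were named after their values were seen. Promoter windows of 250 bases are RefSeq's, build GRCm38.p6. Alternatives covered normalization, the pseudocount, the filter, the probe set rule, the variance model, the genotype block, the arrays in the fit and the fold threshold.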

Additional observations from a re-analysis of the deposited data

Results flagged for a closer look

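In 7 of the genes described, the segment ratio under CaAngII was past 2-fold in one direction in the WT pools and past 2-fold in the other in the KO pools. Each genotype had 1 pool per segment, so this difference between the genotypes was not tested. Values are infrarenal minus suprarenal on the log2 scale.

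Of the inflammatory genes, Ccl2 stood at 2.82 in WT and -1.56 in KO, a gap of 4.37. The ratio of Cxcl2 was 4.92 in WT and -3.03 in KO, a gap of 7.95. Cxcl3 gave 3.93 in WT, -3.77 in KO and a gap of 7.69. For Il6 the ratios were 3.15 and -1.06, with a gap of 4.21. S100a8 had 3.33 and -1.15, with a gap of 4.49. In all 5 the KO suprarenal CaAngII pool held the highest signal of the 8 pools.

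Both steroid genes had the opposite sign. Cyp11a1 gave -5.02 in WT and 1.49 in KO, a gap of -6.51, and Hsd3b1 gave -7.87 in WT and 4.00 in KO, a gap of -11.87. Their signals were 219.5 and 1425 in the WT suprarenal CaAngII pool, and at most 9.54 and 182 in the other 3 CaAngII pools. The 30th percentile of signals was 44.6 on the KO suprarenal and 40.8 on the KO infrarenal CaAngII array. Both KO Cyp11a1 signals lay below it, so the sign and size of that KO ratio have little precision.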

How the results depend on the processing

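No paired analysis was possible because the aortic pools carry no replicate numbers. The segments were matched by genotype instead, which was a block in the fit, and the same fit on the 4 CaAngII pools alone gave 2159 genes higher and 2379 lower. With quantile normalization or without that block, all 135 genes named in the text and called under CaAngII stayed called in the same direction. Over all processing alternatives 117 of them did, the exceptions being Bmp1, Cd8a, Cdt1, Col12a1, Col3a1, Col8a1, Cx3cr1, Hoxa10, Itga4, Lipe, Mcm3, Myh11, Nid1, Npnt, Pgk1, Prss2, Syngr1 and Tgfbr2, and over the fits without 1 pool 130, the exceptions there being Agtr1b, Col3a1, Ibsp, Myh11 and Tnn. Genes called higher under CaAngII numbered 1472 with the probe set of largest variance, and 1246 to 2224 without 1 pool, while lower ones numbered 1679 to 2511. Untreated higher calls were 2115 with arrays centred on their median, 700 with the probe set of largest variance, 479 without the variance trend and 307 to 1200 without 1 pool. Untreated lower calls were 1132 with probe sets averaged, 1005 without the trend and 673 to 1785 without 1 pool. Positive interactions were 666 with probe sets averaged, 523 without the trend and 527 to 1039 without 1 pool. Negative ones were 1378 with centred arrays, 534 with probe sets averaged, 538 with the probe set of largest variance, 256 without the trend and 337 to 800 without 1 pool. Without the variance trend, the interaction count of macrophage genes was 11 and the untreated lower counts were 4 for macrophage, 4 for brown fat and 3 for MHC class II genes. Shared genes at 1.5-fold numbered 1397 higher and 1779 lower, and at 3-fold 205 and 524. Without 1 pool these shared counts have no value, since both genotypes are needed. The sign turned for Acta2 under CaAngII (-0.64 with probe sets averaged, -0.89 with the probe set of largest variance) and for Bmp1 (-0.084 with the latter). It also turned without the WT suprarenal CaAngII pool for Ccl2 (-1.94), Cxcl2 (-3.42), Cxcl3 (-4.30) and Il6 (-1.31), and without the KO suprarenal CaAngII pool the 4 genes were called higher (3.19, 5.31, 4.46 and 3.39). The cause of these changes was not tested. Signals near the bottom of the array, such as suprarenal Ibsp and Tnn, set wide ratios with little precision.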

Other observations

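Other gene groups differed by segment under CaAngII. Integrins, the receptors that tie cells to matrix and to each other, gave 8 higher and 5 lower among 19 tested, but the higher count was 3 without the WT or without the KO infrarenal CaAngII pool and the lower count 1 without the former. Over all genes, 15.9% were higher and 17.3% lower under CaAngII. In the untreated pools 5 integrins were higher, or 3 with probe sets averaged, and 1 was lower. Under CaAngII, leukocyte chains led the higher integrins. Itgax, the CD11c chain of dendritic cells and macrophages, gave 167 (WT) and 302 (KO) in the suprarenal pools and 1418 (WT) and 1697 (KO) in the infrarenal pools. Both infrarenal pools were far above the suprarenal ones (log2 difference 2.79, SE 0.26, adjusted p = 0.000215). Itga4, a chain that leukocytes use to bind VCAM1, differed by 1.42 (adjusted p = 0.000156, or 0.0553 with its probe sets averaged), and Itga8, a chain of smooth muscle and an element of the contractile list, by -0.83. Among oxidant genes the phagocyte oxidase subunit Cyba was higher at 1.63, as was Cybb above, and the mitochondrial superoxide dismutase Sod2 was lower at -1.04.

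Of 21 proteoglycan and hyaluronan genes, 6 were higher and 1 lower under CaAngII, against 15.9% and 17.3% of all genes, and 8 were higher untreated, or 4, 3, 3 and 2 without the WT suprarenal, KO suprarenal, WT infrarenal and KO infrarenal untreated pool. Fmod, fibromodulin, which binds collagen fibrils, gave 13497 in the WT and 14416 in the KO infrarenal pool, beside 4602 and 3071 in their suprarenal counterparts. Its infrarenal CaAngII pools did not overlap the suprarenal ones (log2 difference 1.89, SE 0.17, adjusted p = 0.000186). Lum, lumican, differed by 0.93 under CaAngII and 0.74 untreated (adjusted p = 0.00347, or 0.0529 without the KO infrarenal untreated pool). Of 16 basement membrane genes, 4 were higher under CaAngII, or 1 without either KO CaAngII pool, and 2 were lower. Those counts stand beside the same 15.9% and 17.3% of all genes. In the untreated pools 11 of the 16 were higher and none lower (median 0.56), or 3 higher without the variance trend. The interaction was positive for none and negative for 5, or 1 without the trend. Nid1, the linker of laminin and type IV collagen, differed by 0.73 under CaAngII (adjusted p = 0.000824) and 0.70 untreated, and the probe set of largest variance gave 0.37 under CaAngII (adjusted p = 0.388). Mast cell genes were lower for 4 of 11, or 2 without the WT or the KO infrarenal CaAngII pool. Mcpt4, a mast cell protease, gave 596 and 747 in the WT and KO suprarenal pools, against 236 and 284 in the WT and KO infrarenal pools, which put the infrarenal pools at the lower end (log2 difference -1.37, SE 0.17, adjusted p = 0.000761). Gata2, a transcription factor of mast cells, endothelium and sympathetic neurons, differed by -1.36. Tfpi, the inhibitor of the tissue factor pathway, differed by 1.37, and Rgs4, which dampens signals of G-protein-coupled receptors, by -2.33. Rbp4, the carrier of retinol, was lower in the infrarenal pools under CaAngII (log2 difference -0.85, SE 0.11, adjusted p = 0.000932) and higher untreated (log2 0.79, SE 0.11, adjusted p = 0.00296), with an interaction of -1.64 (adjusted p = 0.00116).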
